A study of Gallus gallus with 24 samples.

Results

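Genes for the storage, uptake and export of iron were followed in the ileum of broiler chickens. The members were taken by symbol from a list of 8 (FTH1, TFRC, SLC11A2, SLC40A1, HEPH, ACO1, IREB2 and HMOX1), and 7 of them had a row among the 25339 genes of the table. TFRC had no row under that symbol. An entry with the symbol TFR2 (ENSGALG00000007485, chromosome 9) was described beside the members, since RefSeq's chicken gene table (GRCg7b) gives TFR2 as a synonym of TFRC on chromosome 9; it was not counted as a member.

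RNA of 24 birds aged 14 d was sequenced, 6 in each of 4 groups, with 1 bird drawn from each replicate cage. SPM birds ate a diet with 300 mg/kg magnolol and SPH birds a diet with 300 mg/kg honokiol, and both were given 0.5 mL of Salmonella pullorum by mouth on day 5. SP birds had the same challenge on the basal diet, and CTL birds had the basal diet and 0.5 mL of PBS on day 5. Honokiol and magnolol are isomeric biphenols of magnolia bark that differ in where the hydroxyl and allyl groups sit on their rings. The CTL cages stood apart from those of the challenged groups, so challenge and place cannot be told apart in any comparison with CTL. All birds were Arbor Acres broilers sampled after a fast, and the labels give no sex.

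Cells keep spare iron inside ferritin, whose heavy chain (FTH1) oxidizes the metal so that it can be stored. Gut cells take up dietary iron through DMT1 (SLC11A2) at the apical side and pass it to the blood through ferroportin (SLC40A1) with the help of the ferroxidase hephaestin (HEPH), while the transferrin receptor (TFRC) brings in iron bound to transferrin. In mammals, the iron regulatory proteins IRP1 (ACO1, which is a cytosolic aconitase when it holds an iron-sulfur cluster) and IRP2 (IREB2) bind iron-responsive elements in mRNAs of ferritin, the transferrin receptor, DMT1 and ferroportin, and so act on translation and mRNA stability, while heme oxygenase 1 (HMOX1) frees iron from heme.

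Reads on genes numbered 14393822 to 19435410 per bird. Enterocyte genes were abundant, with a mean of 5146 FPKM for APOA1, 2208 FPKM for FABP2 and 584 FPKM for VIL1, so the tissue carried intestinal transcripts. Transcripts of the W chromosome, which hens carry and cocks lack, divided the birds into 8 without them (1.83 to 3.26 summed FPKM) and 16 with them (512 to 633 summed FPKM). The birds without W transcripts were 2 of 6 in SPM, 3 of 6 in SPH, 3 of 6 in SP and 0 of 6 in CTL, so this status was unequal between the challenged groups and CTL. In whole tissue, fewer cells of a type and less RNA per cell cannot be told apart.

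The genes spanned a wide range of levels, given here as FPKM. These are scaled to gene length and depth, so genes can be set side by side within a bird. Between birds the FPKM sum over all genes was not equal, from 467698 in SP replicate 5 to 590105 in SPH replicate 6. The main fits did not rescale it. FTH1 averaged 2905 FPKM over the 24 birds and ranked 11 among the 17288 genes tested. HMOX1 (68.9 FPKM), HEPH (44.8 FPKM), ACO1 (37.9 FPKM), IREB2 (25.4 FPKM), the TFR2 entry (21.2 FPKM) and SLC40A1 (21.0 FPKM) followed, and SLC11A2 was lowest at 4.89 FPKM. SLC11A2 had 608 to 1067 reads per bird and FTH1 31065 to 54783.

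No member differed between groups once p was adjusted over all genes. Of the 42 comparisons (7 members in 6 contrasts), 0 passed an adjusted p under 0.05 in limma (Benjamini-Hochberg), the smallest adjusted p being 0.554. With a log2 fold change beyond 0.5 asked for as well, 0% of all genes passed in each of the 6 contrasts, so limma gave no calls among the other genes either. The paper, at these limits but with a count model, reports many differentially expressed genes in SP vs CTL, SPH vs SP and SPM vs SP. It also measured selected genes, none of them a member, by RT-qPCR and describes a good correlation with its RNA-seq. The paper's count model was not run here, so the 0% holds for limma alone. On reads recovered from the FPKM, limma-voom passed 1 gene in SPM vs SP and 0 in each other contrast. In SPM vs SP the 0 of the main fit was not stable over all genes. There 145 genes passed without SP replicate 2 and 121 among birds with W transcripts alone. Yet no member reached an adjusted p under 0.05 in limma in these fits either. At an unadjusted p under 0.05, 3 of the 42 passed. They were ACO1 in SP vs CTL (1 of 7 members, against 6.18% of all genes), SLC40A1 in SPH vs CTL (1 of 7, against 3.64%) and ACO1 in SPM vs CTL (1 of 7, against 5.08%). None of the 7 members passed in SPH vs SP (8.83% of all genes did), SPM vs SP (15.4%) or SPM vs SPH (4.58%). In no contrast did the values of 2 groups stay apart for any member, as they did for 0.792% of all genes (SPM vs SP), 0.364% (SPH vs SP), 0.272% (SP vs CTL), 0.22% (SPM vs CTL), 0.162% (SPM vs SPH) and 0.127% (SPH vs CTL). The SP birds enter 3 contrasts and the CTL birds 3, so the contrasts are not independent.

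**Figure D1:**
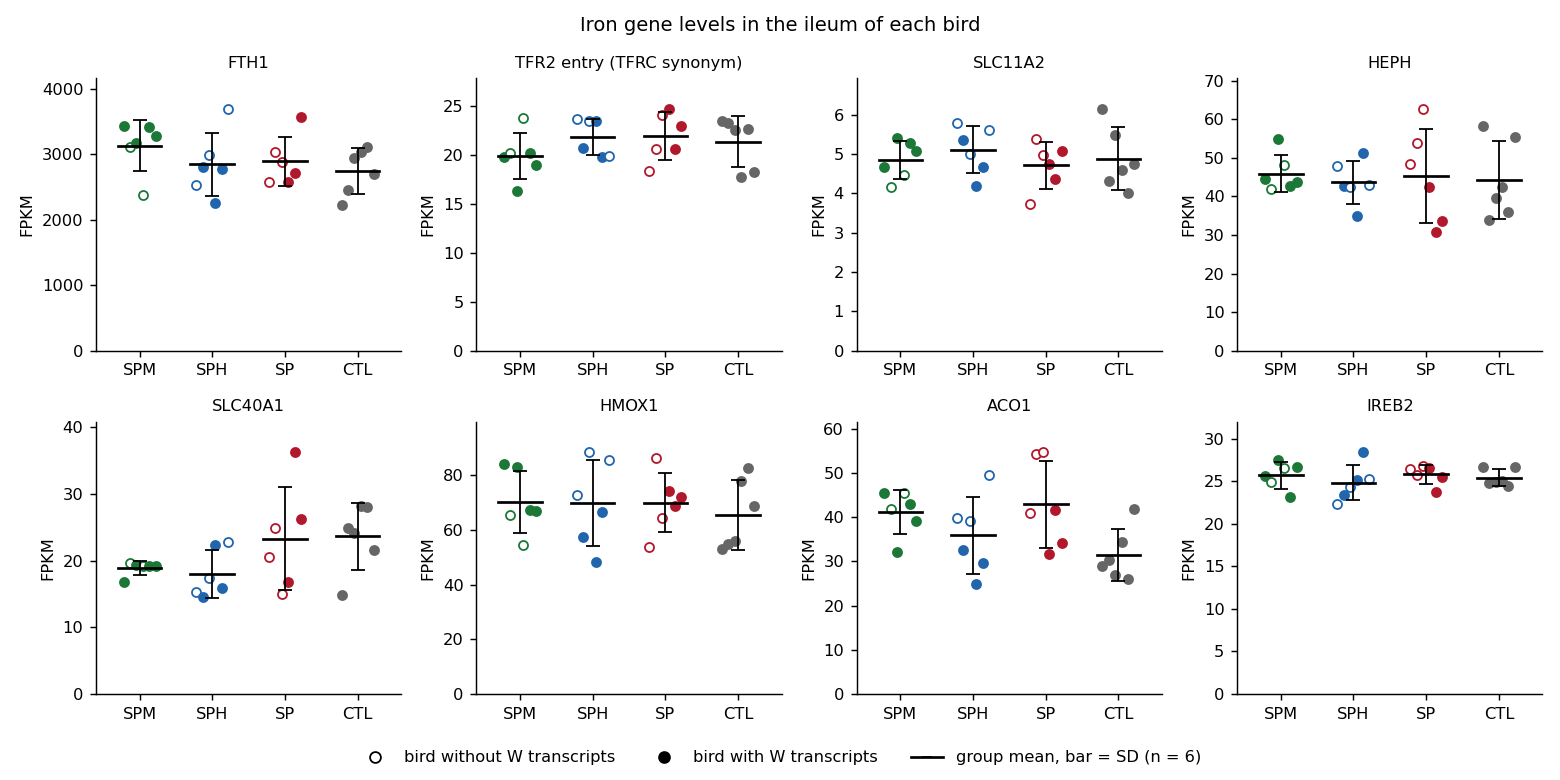
FPKM of each bird (points) for the 7 members and the TFR2 entry, by group on the x axis, with the group mean and SD (n = 6); open points are birds without W transcripts and filled points birds with them. The groups overlap in every panel, and for ACO1 the CTL mean is 31.4 FPKM, with 1 CTL bird at 41.9 FPKM.

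FTH1 (ENSGALG00000007220, chromosome 5, 16995951 to 17000513, minus strand), the ferritin heavy chain, was by far the most abundant member and passed no test between groups. Its lowest, median and highest FPKM were 2385, 3225 and 3432 in SPM, 2264, 2798 and 3699 in SPH, 2572, 2797 and 3576 in SP, and 2219, 2826 and 3112 in CTL. Apart from 1 bird, SPM lay above the whole CTL group, with 5 of 6 birds over the highest CTL value. The mean was 3135 ± 389 FPKM in SPM and 2746 ± 354 FPKM in CTL (SD, n = 6 each), a log2 fold change of 0.19 (SE 0.15, 95% interval -0.12 to 0.50), which did not pass (limma adjusted p = 0.931; exact permutation p = 0.119). Between SP and CTL the log2 fold change was 0.08 (interval -0.23 to 0.39). Group means ran from SPM through SP and SPH to CTL, and no neighbours in that order passed an exact permutation test (p of 0.303 to 0.807).

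SLC11A2 (ENSGALG00000041533, chromosome 33, 4895801 to 4954711, minus strand), the apical iron importer DMT1, was the scarcest member and passed no test between groups. In FPKM, the lowest, median and highest birds had 4.17, 4.88 and 5.41 in SPM, 4.20, 5.18 and 5.79 in SPH, 3.74, 4.86 and 5.39 in SP, and 4.02, 4.68 and 6.16 in CTL. All groups covered nearly the same range. The largest of its 6 log2 fold changes was 0.11 in SPH vs SP (SE 0.11, interval -0.12 to 0.35; limma adjusted p = 0.828), and no interval reached beyond 0.35 in either direction. By mean, the order was SPH, CTL, SPM and SP, and no neighbours passed an exact permutation test (p of 0.556 to 0.985).

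The TFR2 entry (ENSGALG00000007485, chromosome 9, 15091718 to 15104420, plus strand) carries a transferrin receptor symbol, a family that brings transferrin iron into cells or senses it. Lowest, median and highest FPKM were 16.3, 20.0 and 23.7 in SPM, 19.8, 22.1 and 23.7 in SPH, 18.3, 21.8 and 24.7 in SP, and 17.8, 22.6 and 23.4 in CTL. The 4 ranges overlapped nearly whole. SPM had the lowest mean, 19.9 ± 2.38 FPKM, against 21.9 ± 2.44 FPKM in SP (SD, n = 6 each; log2 fold change -0.14, interval -0.34 to 0.05; limma adjusted p = 0.502; exact permutation p = 0.188). Means ran from SP through SPH and CTL to SPM, with exact permutation p of 0.342 to 0.996 between neighbours.

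SLC40A1 (ENSGALG00000043618, chromosome 7, 388116 to 402901, plus strand), the iron exporter ferroportin, varied most of the members: its highest bird had 2.49 times the FPKM of its lowest. Its lowest, median and highest FPKM were 16.8, 19.2 and 19.7 in SPM, 14.6, 16.6 and 22.8 in SPH, 15.0, 22.7 and 36.3 in SP, and 14.8, 24.6 and 28.2 in CTL. The 6 SPM birds lay close together, whereas SP spread widely and held the highest bird of all. SPH averaged 18.0 ± 3.63 FPKM and CTL 23.6 ± 5.00 FPKM (SD, n = 6 each).

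All 6 SPH birds were below the CTL median for SLC40A1, but only 1 was below every CTL bird. The log2 fold change of SLC40A1 in SPH vs CTL was -0.38 (SE 0.18, interval -0.75 to -0.01) at an unadjusted limma p of 0.0441, which did not hold after adjustment (adjusted p = 1) or in the exact permutation test (p = 0.0671, 6 against 6). Leaving out any 1 of 8 birds (SPH replicates 1, 2, 3 and 5, CTL replicates 2 to 5) brought the unadjusted p to 0.05 or above, at most 0.0985. The summed FPKM of the goblet cell list (3 of its 5 symbols tested, none at 0) was 2241 to 4834 in SPH, with a median of 4262. That lay inside the CTL range of 1262 to 5966, whose median was 1618. The macrophage list (9 of 11 symbols tested, none at 0) had 360 to 618 with a median of 410 in SPH and 444 to 605 with a median of 473 in CTL. The B cell list had a median of 101 in SPH and 230 in CTL. At an unadjusted limma p under 0.05, 2 of 3 goblet cell entries were higher in SPH (1.84% of all genes). Lower were 1 of 9 macrophage, 1 of 8 T cell and 1 of 7 B cell entries (1.8% of all genes). Their part in the SLC40A1 value was not tested.

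Ferroportin in the other contrasts had SPM birds all below the median of SP and of CTL, yet inside both ranges. The log2 fold change of SLC40A1 was -0.24 in SPM vs SP (interval -0.61 to 0.13; limma adjusted p = 0.554), -0.33 in SPH vs SP (interval -0.69 to 0.04; adjusted p = 0.634) and -0.29 in SPM vs CTL (interval -0.66 to 0.08; adjusted p = 0.931). In SP vs CTL it was -0.05 (interval -0.42 to 0.32). Means ran from CTL through SP and SPM to SPH, and no neighbours passed an exact permutation test (p of 0.245 to 0.838).

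HEPH (ENSGALG00000037410, chromosome 4, 297485 to 319373, plus strand), the ferroxidase that works with ferroportin, had nearly equal group means of 45.9 ± 4.87 FPKM in SPM, 43.7 ± 5.56 FPKM in SPH, 45.3 ± 12.1 FPKM in SP and 44.2 ± 10.2 FPKM in CTL (SD, n = 6 each). Its lowest, median and highest FPKM were 41.9, 44.0 and 54.8 in SPM, 35.0, 42.8 and 51.3 in SPH, 30.9, 45.3 and 62.7 in SP, and 33.8, 41.0 and 58.2 in CTL. SP and CTL birds were spread out, and SPM and SPH birds lay inside the SP range. All 6 log2 fold changes were between -0.02 and 0.08, with intervals that reached at most 0.40 from 0, and exact permutation p between neighbours in the order of means was 0.740 to 0.987.

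ACO1 (ENSGALG00000002162, chromosome Z, 71167702 to 71204524, plus strand), the iron regulatory protein IRP1, had the largest log2 fold change of the 42, between groups that differed in W transcripts (3 of 6 SP birds and 0 of 6 CTL birds were without them); with W status as a covariate its values were smaller than that of SLC40A1 in SPH vs CTL, which was then -0.34. Its lowest, median and highest FPKM were 32.2, 42.4 and 45.6 in SPM, 24.9, 35.9 and 49.4 in SPH, 31.7, 41.2 and 54.8 in SP, and 26.1, 29.6 and 41.9 in CTL. All 6 SPM and all 6 SP birds were above the CTL median, and 3 SPM and 2 SP birds were above every CTL bird. In SP vs CTL the means were 42.9 ± 9.82 FPKM and 31.4 ± 5.90 FPKM (SD, n = 6 each), a log2 fold change of 0.44 (SE 0.16, interval 0.11 to 0.76) at an unadjusted limma p of 0.0112, an adjusted p of 0.767 and an exact permutation p of 0.0346. In SPM vs CTL the means were 41.2 ± 5.04 FPKM and 31.4 ± 5.90 FPKM, a log2 fold change of 0.40 (SE 0.16, interval 0.07 to 0.73) at an unadjusted limma p of 0.0186, an adjusted p of 0.931 and an exact permutation p of 0.0195. Both comparisons use the same CTL birds, and neither passed after adjustment.

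Cell type markers moved beside ACO1 in SP vs CTL. At an unadjusted limma p under 0.05, 7 of 8 T cell and 3 of 9 proliferation entries were higher in SP. So was 1 of 7 B cell entries, against 2.87% of all genes. In SP, 5 of 10 smooth muscle entries were lower (3.31% of all genes), and none of these lists held an entry at 0. In SPM vs CTL, whose ACO1 values are given above, 0 of 8 T cell and 0 of 10 smooth muscle entries passed. There 3 of 9 proliferation, 1 of 7 B cell and 1 of 3 goblet cell entries were lower (2.62% of all genes). Higher were 3 of 7 red blood cell entries (2.46%). The summed FPKM of the T cell list was 272 to 396 in SP and 177 to 368 in CTL, that of the proliferation list 197 to 321 in SP and 193 to 283 in CTL, and that of the smooth muscle list 1382 to 2209 in SP and 2038 to 2912 in CTL. Their part in the ACO1 values was not tested.

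In SPH, which averaged 35.9 ± 8.73 FPKM, ACO1 lay between SP and CTL (SPH vs CTL log2 fold change 0.18, interval -0.15 to 0.51; SPH vs SP -0.26, interval -0.59 to 0.07). Means ran from SP through SPM and SPH to CTL, with exact permutation p of 0.219 to 0.838 between neighbours.

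IREB2 (ENSGALG00000035462, chromosome 10, 4111782 to 4133567, minus strand), the iron regulatory protein IRP2, was the steadiest member. The lowest, median and highest birds had, in FPKM, 23.1, 26.1 and 27.5 in SPM, 22.4, 24.7 and 28.4 in SPH, 23.7, 26.1 and 26.8 in SP, and 24.5, 24.97 and 26.7 in CTL. The highest of the 24 birds had 1.27 times the lowest, and only 0.711% of the genes tested had a smaller SD within groups on the log2 scale. No interval for IREB2 reached beyond 0.18 on the log2 scale in any contrast. By mean, the order was SP, SPM, CTL and SPH, with exact permutation p of 0.522 to 0.931 between neighbours.

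HMOX1 (ENSGALG00000012550, chromosome 1, 52103308 to 52109433, minus strand), which breaks heme down to biliverdin, carbon monoxide and iron and is inducible by heme and oxidative stress, had means of 70.2 ± 11.3 FPKM in SPM, 69.9 ± 15.7 FPKM in SPH, 70.0 ± 10.8 FPKM in SP and 65.5 ± 12.8 FPKM in CTL (SD, n = 6 each). Over the birds, the lowest, median and highest FPKM were 54.5, 67.2 and 84.0 in SPM, 48.3, 69.7 and 88.6 in SPH, 53.7, 70.4 and 86.2 in SP, and 53.2, 62.3 and 82.6 in CTL. The 4 groups covered much the same range. The largest log2 fold change was 0.11 in SPM vs CTL (SE 0.15, interval -0.20 to 0.42; limma adjusted p = 0.954), and neighbours in the order of means had exact permutation p of 0.641 to 0.976.

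**Figure D2:**
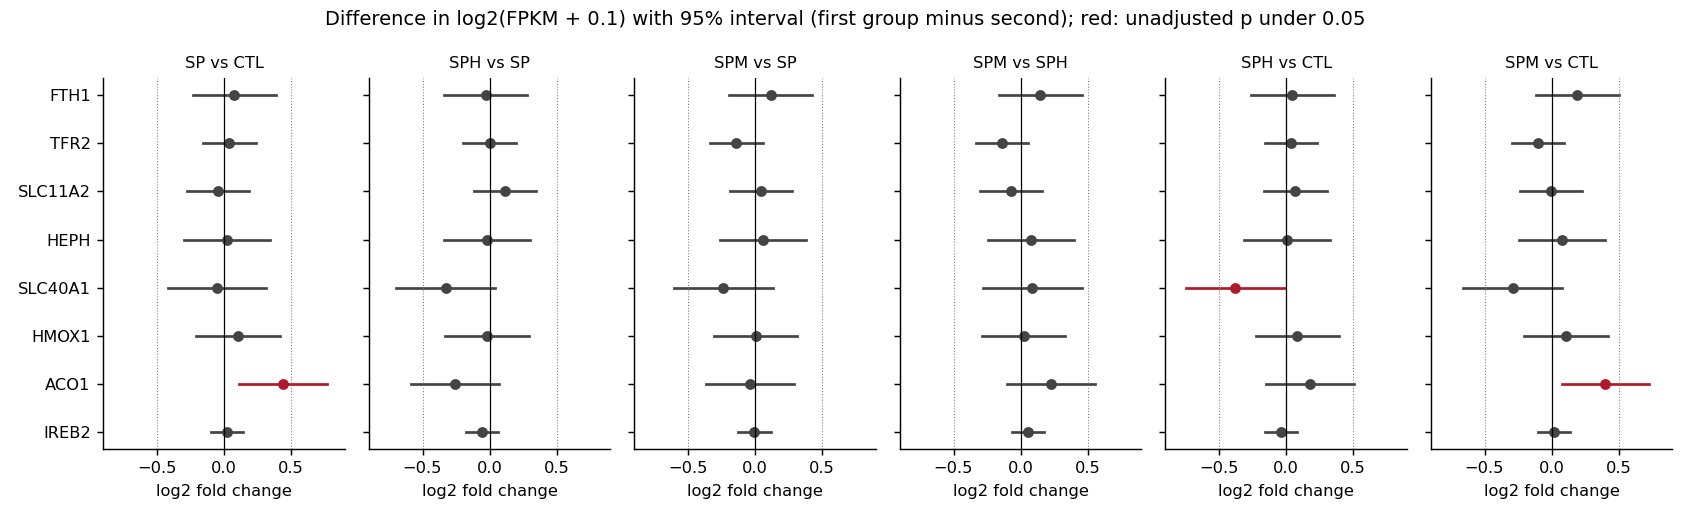
Log2 fold change (x axis, log2(FPKM + 0.1), first group minus second) with its 95% interval for each gene (y axis) in the 6 contrasts; red marks an unadjusted p under 0.05 and dotted lines mark 0.5 in each direction. ACO1 in SP vs CTL and SPM vs CTL and SLC40A1 in SPH vs CTL are the 3 whose interval leaves out 0, and the IREB2 intervals are the narrowest.

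Magnolol and honokiol were given at the same 300 mg/kg and sampled at the same age, so SPM vs SPH compares these isomers directly. Of the 7 members and the TFR2 entry, 0 of 8 passed an unadjusted limma p under 0.05, against 4.58% of all genes. This 0 was not stable. The count of members was 1 with W status as a covariate and 2 among birds with W transcripts alone. Which members these were is not given here. ACO1 had the largest log2 difference, 0.22 higher in SPM (interval -0.10 to 0.55; limma adjusted p = 0.996 over all genes; exact permutation p = 0.219). FTH1 differed by 0.15 (interval -0.16 to 0.45), the TFR2 entry by -0.14 (interval -0.33 to 0.06), SLC40A1 by 0.09 (interval -0.28 to 0.46) and SLC11A2 by -0.07 (interval -0.30 to 0.16). These intervals leave room for differences of that size, and they do not show that the isomers act alike. Cell type markers also moved in SPM vs SPH. At an unadjusted limma p under 0.05, 8 of 9 proliferation and 2 of 3 goblet cell entries were lower in SPM (2.33% of all genes). Higher was 1 of 12 enterocyte entries (2.24%), and no entry of the other lists passed. Their part in the SPM vs SPH values was not tested.

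ACO1 lies on the Z chromosome, of which hens carry a single copy and cocks a pair, so birds were also compared by W transcripts within groups. ACO1 was higher in birds without W transcripts. The lowest, median and highest FPKM were 39.2, 43.7 and 54.8 in the 8 birds without W transcripts and 24.9, 32.4 and 45.6 in the 16 birds with them, with means of 45.7 ± 6.40 FPKM and 33.9 ± 6.46 FPKM (SD). The log2 difference within groups was 0.40 (SE 0.10, interval 0.19 to 0.62; limma adjusted p = 0.0363; exact permutation within groups p = 0.00333 over 6000 regroupings). This was the only member at an adjusted p under 0.05, against 2.4% of all genes, and the only one at an unadjusted p under 0.05, against 8.29%. Both shares include W genes, whose transcripts set the split. The adjusted p was 0.0164 to 0.0965 when 1 bird was left out, and it was at least 0.05 without SPM replicate 3, SPH replicate 1, 3, 4, 5 or 6, or SP replicate 2, 3, 4 or 6.

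The ACO1 difference lay near the median of the Z genes. The 751 Z genes tested had a median log2 difference of 0.40 (quartiles 0.15 and 0.66), 44.1% of them passed an adjusted p under 0.05, and ACO1 stood above 49.7% of them. The 16464 genes of other chromosomes, W left out, had a median of -0.02, and 0.14% passed. With W status as a covariate, the ACO1 log2 fold change was 0.24 in SP vs CTL (limma adjusted p = 1.00) and 0.27 in SPM vs CTL (limma adjusted p = 0.998), and neither was below 0.05 before adjustment. Among birds with W transcripts alone (3 SP, 4 SPM and 6 CTL birds) it was 0.20 in SP vs CTL (limma adjusted p = 0.736) and 0.36 in SPM vs CTL (limma adjusted p = 0.720), of which SPM vs CTL alone was below 0.05 before adjustment.

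Within single groups, the 3 SPH birds without W transcripts had 39.2 to 49.4 FPKM of ACO1 and the 3 with them 24.9 to 32.5 FPKM. In SP the ranges were 40.9 to 54.8 FPKM without W transcripts and 31.7 to 41.5 FPKM with them, and in SPM they were 41.8 to 45.6 FPKM for 2 birds and 32.2 to 45.6 FPKM for 4. The values stayed apart in SPH alone and overlapped in SP and SPM. How many of all genes stay apart in such small splits was not counted.

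**Figure D3:**
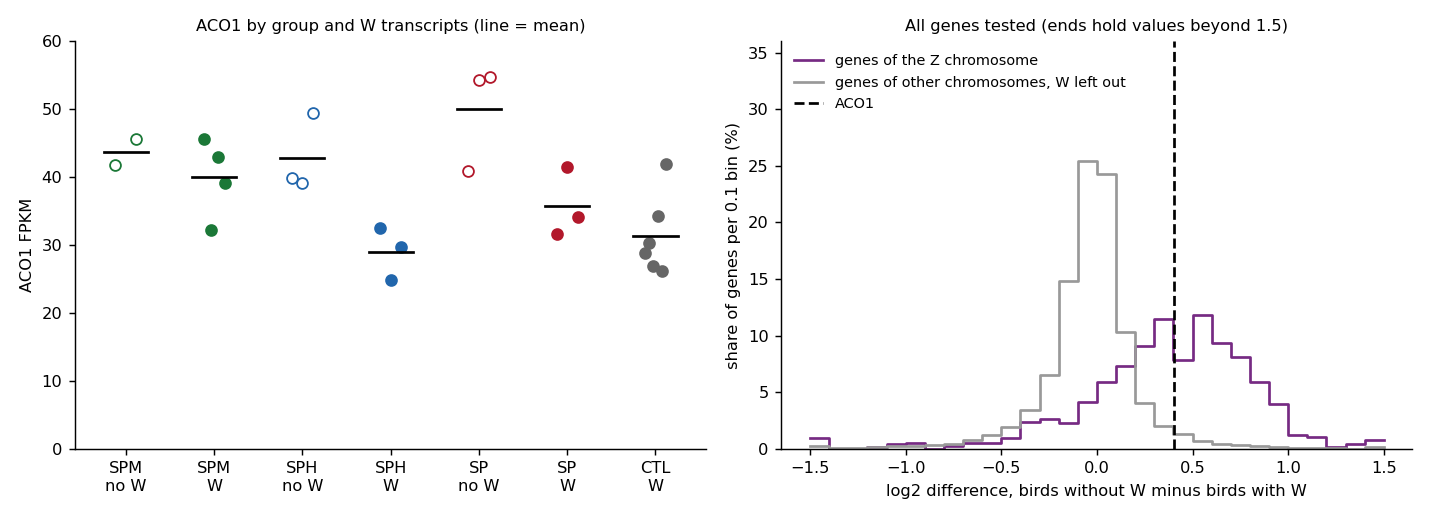
Left, ACO1 FPKM of each bird by group and W transcripts (points; line = mean). Right, share of genes (y axis, %) by log2 difference of birds without W transcripts minus birds with them (x axis) for 751 Z genes and 16464 genes of other chromosomes, with ACO1 at 0.40 (dashed line), at the centre of the Z genes.

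No other member differed by W transcripts over all groups, with unadjusted limma p of 0.0783 (HEPH, log2 difference 0.23, interval -0.03 to 0.48) to 0.931. In 1 group at a time, HEPH in SP was 48.3 to 62.7 FPKM in the 3 birds without W transcripts and 30.9 to 42.3 FPKM in the 3 birds with them, with no overlap. HEPH ranges overlapped in SPM (41.9 to 48.0 FPKM without, 42.6 to 54.8 FPKM with) and in SPH (42.4 to 47.7 FPKM without, 35.0 to 51.3 FPKM with). HMOX1 was 72.6 to 88.6 FPKM without W transcripts and 48.3 to 66.7 FPKM with them in SPH, and the order was turned in SPM, where it was 54.5 to 65.4 FPKM without and 67.0 to 84.0 FPKM with them. The difference between SPH and SP in this effect was -0.57 for HEPH (interval -1.03 to -0.11; adjusted p = 0.290 in limma) and 0.63 for HMOX1 (interval 0.13 to 1.12; adjusted p = 0.272), and between SPM and SP it was -0.67 for HEPH (interval -1.14 to -0.19; adjusted p = 0.408). None passed after adjustment. In SPM, FTH1 also stayed apart, at 2385 to 3119 FPKM without W transcripts and 3172 to 3432 FPKM with them. So did SLC11A2 in SPM, at 4.17 to 4.47 FPKM without them and 4.68 to 5.41 FPKM with them. The share of all genes whose values stay apart in such small splits was not counted, so these cases are description alone.

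The genes were then compared with each other across the 24 birds, on log2 values centred on the group mean, in 28 pairs of the 7 members and the TFR2 entry. SLC40A1 and HEPH, the exporter and its ferroxidase, ran opposite (r = -0.71, permutation p = 8e-05, adjusted over the pairs 0.00224; rho = -0.59, permutation p = 0.00321, adjusted 0.030). Without the 2 birds farthest from the SLC40A1 median, r was -0.56, and with centring on group and W status it was -0.70. SP replicate 5 had 36.3 FPKM of SLC40A1 and 30.9 FPKM of HEPH, the highest and the lowest of all birds, while CTL replicate 1 had 14.8 FPKM and 58.2 FPKM. The SD of SLC40A1 was 5.64% of its mean in SPM and 33.3% in SP, and that of HEPH 10.6% and 26.8%. The permutations, here and in the later correlations, exchanged birds across groups despite such unequal spread. The relation was not tested within single groups.

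FTH1 and HMOX1, the ferritin chain and the enzyme that frees iron from heme, ran together (r = 0.69, permutation p = 0.00026, adjusted 0.00364; rho = 0.67, permutation p = 0.00058, adjusted 0.0162). Without the 2 birds farthest from the FTH1 median r was 0.62, and with centring on group and W status it was 0.60. SPH replicate 6 had 3699 FPKM of FTH1 and 85.7 FPKM of HMOX1, against 2264 FPKM and 48.3 FPKM in SPH replicate 4. These birds also differed in the sum of FPKM over all genes, 590105 in SPH replicate 6 and 476757 in SPH replicate 4. With FPKM rescaled to the same sum in every bird, chosen after seeing the data, r for FTH1 and HMOX1 was 0.64 (permutation p = 0.0006) and rho 0.49 (permutation p = 0.0161), with r = 0.49 without the 2 farthest birds; for SLC40A1 and HEPH r was -0.74. HEPH and IREB2 had r = 0.53 (permutation p = 0.00765, adjusted 0.0714; rho = 0.61, permutation p = 0.00194, adjusted 0.0272), and the other 25 pairs had adjusted p of 0.247 or more for r. The points share a library and its cell makeup, which a pair of genes cannot separate.

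**Figure D4:**
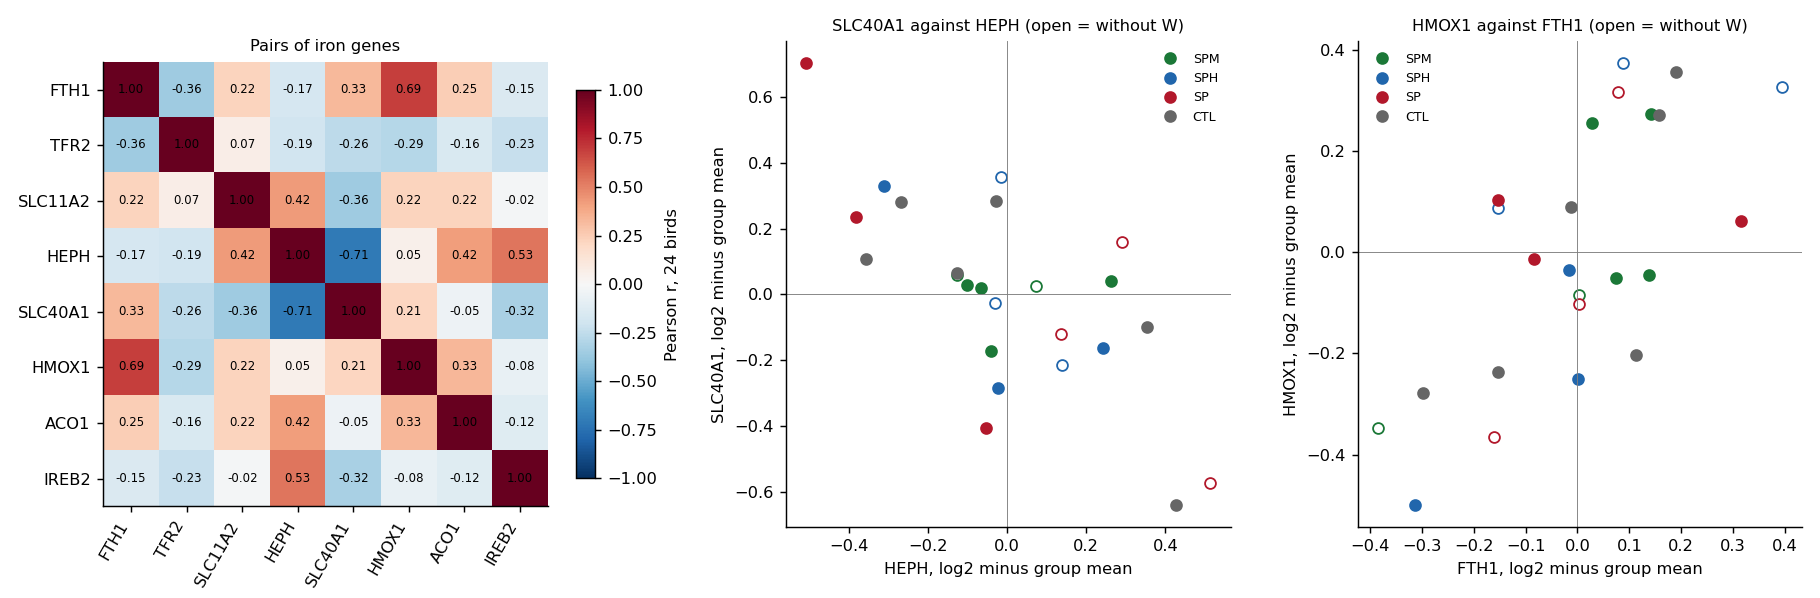
Left, Pearson r of each pair of genes over 24 birds on log2(FPKM + 0.1) centred on the group mean. Middle and right, each bird (points, coloured by group; open = without W transcripts) for SLC40A1 against HEPH (r = -0.71) and HMOX1 against FTH1 (r = 0.69), as log2 minus the group mean.

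Cell type lists were set beside the members as 64 pairs of a gene and a list score. HEPH went with the enterocyte score (r = 0.67, permutation p = 0.00043, adjusted 0.0275; rho = 0.68, adjusted 0.0179; r = 0.60 without the 2 farthest birds and 0.45 with centring on group and W status) and against the B cell score (r = -0.63, permutation p = 0.001, adjusted 0.032; rho = -0.61, adjusted 0.0592; r = -0.52 without the 2 farthest birds). SLC40A1 went against the goblet cell score (r = -0.60, permutation p = 0.00208, adjusted 0.0444), but rho did not pass (rho = -0.49, adjusted 0.183) and r was -0.34 without the 2 farthest birds, so the relation rests in part on those birds. Summed FPKM of the enterocyte list (12 of 14 symbols tested, none at 0) had medians of 22303 in SPM, 17769 in SPH, 19091 in SP and 18773 in CTL. The red blood cell list (7 entries tested, led by HBA1, HBM and ALAS2) had medians of 545 in SPM, 390 in SPH, 303 in SP and 289 in CTL, with overlapping ranges. The part of cell makeup in the pair relations was not tested.

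For each gene, the 3 genes whose group-centred log2 values were most like it over the 24 birds were taken from 10442 genes with a symbol and a mean of at least 1 FPKM, as a description. FTH1 was most like BORCS7 (r = 0.78), GCG (r = 0.72) and HMOX1 (r = 0.69). SLC11A2 was most like HGS (r = 0.90), SRXN1 (r = 0.82) and CASC3 (r = 0.80). SLC40A1 was most like MXRA8 (r = 0.85), FUCA2 (r = 0.81) and GBGT1 (r = 0.80).

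HEPH had the closest companions, namely SPTAN1 (r = 0.93), ARHGEF12 (r = 0.92) and FAT1 (r = 0.91). For ACO1 they were DGKQ (r = 0.79) and THAP1 (r = 0.78), both on chromosome Z like ACO1 itself, and PLPP6 (r = 0.77); with centring on W status as well, r was 0.62, 0.46 and 0.63. IREB2 was most like PFKFB3 (r = 0.75), SUCLA2 (r = 0.74) and NCBP3 (r = 0.74), HMOX1 like CA2 (r = 0.73), FAM53A (r = 0.71) and SLC26A9 (r = 0.69), and the TFR2 entry like DAZAP1 (r = 0.79), ENGASE (r = 0.77) and SNUPN (r = 0.77).

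Around the members, a wider list of 64 symbols for iron transport, heme and iron-sulfur genes had 51 entries in the table, of which 50 passed the filter on low values. None passed an adjusted p under 0.05 in the 6 contrasts. At an unadjusted p under 0.05, 3 entries were higher and 0 lower in SP vs CTL, against 2.87% and 3.31% of all genes. In SPH vs SP 2 were higher and 3 lower (3.21% and 5.62% of all genes), in SPM vs SP 4 and 4 (6.67% and 8.73%) and in SPM vs SPH 2 and 0 (2.24% and 2.33%). In SPH vs CTL 2 were higher and 1 lower (1.84% and 1.8% of all genes), and in SPM vs CTL 4 and 0 (2.46% and 2.62%). The median log2 fold change of the list lay between -0.003 and 0.04 in these contrasts, and that of all genes between -0.007 and 0.01.

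The 5 most abundant entries of the wider list were MELTF (melanotransferrin, 108 FPKM), CYBRD1 (the ferric reductase of the gut surface, 105 FPKM), CISD1 (an iron-sulfur protein of the outer mitochondrial membrane, 95.1 FPKM), EPAS1 (HIF-2 alpha, known in mice to act on intestinal iron genes, 84.3 FPKM) and NCOA4 (the receptor that sends ferritin to lysosomes, 78.9 FPKM). EPAS1 had 88.6 to 103 FPKM in SPM, 75.2 to 93.5 FPKM in SPH, 67.6 to 86.7 FPKM in SP and 74.1 to 84.4 FPKM in CTL. Every SPM bird was above every SP and every CTL bird, an arrangement found in 0.792% of all genes in SPM vs SP and 0.22% in SPM vs CTL, counting both directions. The log2 fold change of EPAS1 was 0.33 in SPM vs SP (means 95.9 ± 6.34 and 76.3 ± 8.25 FPKM; limma adjusted p = 0.0940; exact permutation p = 0.00216, the smallest possible) and 0.25 in SPM vs CTL (adjusted p = 0.902; exact permutation p = 0.00216), so it missed the adjusted threshold in both.

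Markers of several cell types moved in the contrasts with SP in which EPAS1, MELTF, TF, STEAP3 and BLVRA are given. At an unadjusted limma p under 0.05, SPM vs SP had 9 of 9 proliferation entries and 8 of 8 T cell entries lower. Also lower were 5 of 7 B cell, 2 of 9 macrophage and 1 of 3 goblet cell entries (8.73% of all genes). Higher were 3 of 12 enterocyte, 3 of 10 smooth muscle and 1 of 7 red blood cell entries (6.67% of all genes). SPH vs SP had 8 of 8 T cell entries and 4 of 7 B cell entries lower. It also had 2 of 9 macrophage and 1 of 12 enterocyte entries lower (5.62% of all genes). Higher there were 1 of 12 enterocyte and 1 of 10 smooth muscle entries (3.21%). In SPM vs CTL, where EPAS1 also stayed apart, 0 of 8 T cell, 0 of 12 enterocyte and 0 of 10 smooth muscle entries passed. Lower there were 3 of 9 proliferation, 1 of 7 B cell and 1 of 3 goblet cell entries (2.62%). Higher were 3 of 7 red blood cell entries (2.46%). The summed FPKM of the T cell list was 159 to 290 in SPM, 190 to 307 in SPH and 272 to 396 in SP, that of the B cell list 88.2 to 176 in SPM, 76.1 to 331 in SPH and 100.5 to 615 in SP, and that of the proliferation list 147 to 233 in SPM and 197 to 321 in SP, with no entry at 0. Their part in the values of these iron genes was not tested.

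CYBRD1 varied widely between birds, with 82.1 to 208 FPKM in SPM, 62.9 to 203 FPKM in SPH, 43.5 to 173 FPKM in SP and 66.8 to 123 FPKM in CTL. It averaged 127.6 ± 48.5 FPKM in SPM and 89.9 ± 48.2 FPKM in SP. That log2 fold change of 0.59 did not pass (limma adjusted p = 0.387, exact permutation p = 0.156), and those of the other contrasts lay between -0.20 and 0.39. MELTF averaged 132.5 ± 19.6 FPKM in SPM and 91.4 ± 34.4 FPKM in SP (log2 fold change 0.60; limma adjusted p = 0.183; exact permutation p = 0.0281). The paper lists MELTF among its differentially expressed genes of high FPKM, by a count model that was not run here. NCOA4 and CISD1 had log2 fold changes between -0.11 and 0.15 in all 6 contrasts.

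TF, the iron carrier transferrin, averaged 13.4 ± 2.35 FPKM in SPH and 19.2 ± 3.32 FPKM in SP (log2 fold change -0.51; limma adjusted p = 0.379; exact permutation p = 0.0152), with 3 SPH birds below every SP bird. TF was also lower in SPM vs SP (log2 fold change -0.32, limma adjusted p = 0.299, exact permutation p = 0.0584). In SPH vs CTL its log2 fold change was -0.39 (exact permutation p = 0.0433), which did not pass after adjustment in limma. In SP vs CTL it was 0.12. STEAP3, a ferrireductase, averaged 2.50 ± 0.59 FPKM in SPM and 3.65 ± 1.09 FPKM in SP (log2 fold change -0.51; adjusted p = 0.314; exact permutation p = 0.0563). BLVRA, which reduces biliverdin, averaged 1.45 ± 0.798 FPKM in SPH and 4.50 ± 4.05 FPKM in SP (log2 fold change -1.20; adjusted p = 0.536; exact permutation p = 0.0931), and its SP values ran from 0.795 to 11.3 FPKM.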

How the data were processed

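Ileum RNA of 24 broilers (6 per group) was analysed. The authors deposited FPKM per gene with gene length, chromosome, start and end; coordinates are printed as that table gives them. The methods name a NEBNext library kit and a NovaSeq sequencer, while the labels name a TruSeq kit and retinas. The submitters' processing notes name Bowtie 0.12.2 and the builds GRCg6a and mm8, with no roles; the counting program is not given in the sources used here. Since FPKM times gene length came out as whole multiples of 1 step per bird (largest deviation 5.24e-07 reads, tolerance 0.001), reads were recovered from the deposited values and used for depth and as an alternative.

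The 17288 genes that averaged 0.1 FPKM or more were fitted as log2(FPKM + 0.1) with limma 3.58.1 (R 4.3.3), 1 mean per group, an intensity trend and Benjamini-Hochberg adjustment within each of 6 contrasts. Fold changes on this scale understate changes of low genes. The methods' own count model was not run on FPKM. The fit was also run on simulated data, with an outcome that is not reported here and is not used as support. Single values used two-sided exact permutation tests, whose smallest p is 0.00216 for 6 birds against 6, and correlations 100000 permutations. W status was set by the FPKM total of 149 W genes, at a limit of 100. The p values of the contrasts set a difference in means against the spread between birds, with 1 bird from each cage.

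The members and lists were chosen with earlier results of these data known. Named were all members, the 5 most abundant entries of the wider iron list, and its entries at an unadjusted p under 0.05 with a log2 fold change above 0.5 or below -0.5 (at most 5 per contrast). An entry that this rule names is not reported here. Cell type lists were B cell, T cell, enterocyte, goblet cell, macrophage, red blood cell, smooth muscle and proliferation. Alternatives were other pseudocounts (1 and 0.01), other filters, normalizations and samples, limma-voom, W status and a replicate block.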

Additional observations from a re-analysis of the deposited data

Results flagged for a closer look

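Of 32 sets of 6 birds (8 genes in 4 groups), 2 held a bird whose distance from the nearest other, divided by the range of the group, was beyond Dixon's limit of 0.625; chance gives about 1 in 20. FTH1 was 2385 FPKM in SPM replicate 4, below the other 5 SPM birds, and that bird also had the lowest HMOX1 of its group, 54.5 FPKM. SLC40A1 was 16.8 FPKM in SPM replicate 1, below the other 5 SPM birds, which lay within 19.1 to 19.7 FPKM.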

How the results depend on the processing

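The log2 fold changes of the members and the TFR2 entry were recomputed 552 times under 12 other settings and 576 times without 1 bird, and 0 of them reached an adjusted p under 0.05 (smallest 0.241). The sign changed 110 times, each time with an unadjusted p of at least 0.05 in both fits. Members at an unadjusted p under 0.05 were 0 in place of 1 in SP vs CTL, SPH vs CTL and SPM vs CTL with W status as a covariate, 0 in SP vs CTL and SPH vs CTL among birds with W transcripts alone, and 0 in SPH vs CTL with limma-voom. They were 1 in place of 0 for SPH vs SP and also for SPM vs SPH with W status as a covariate, 2 in SPM vs SPH among birds with W transcripts alone and 1 in SPH vs SP among birds without them. Without 1 bird they ran from 0 to 1 in SPH vs CTL and SPM vs SPH, 0 to 2 in SPH vs SP and 1 to 2 in SPM vs CTL. Genes past the adjusted limits in SPM vs SP were 0, and 1 with the replicate block, FPKM rescaled to the same sum, quantile normalization or limma-voom, 121 among birds with W transcripts, 6 among birds without them, and 0 to 145 without 1 bird (145 without SP replicate 2). Among birds without W transcripts they were 5 (SPH vs SP) and 4 (SPM vs SPH), and 1 in SPM vs CTL with the 2 groups alone, in place of 0. The ACO1 difference by W transcripts was 0.34 with quantile normalization (adjusted p = 0.0784), 0.34 with limma-voom (0.0683) and 0.43 with the replicate block (0.0879), all in limma, and 0.36 to 0.45 without 1 bird; the cause was not tested. Birds of the same number did not vary together (36 pairs, median r = -0.03), so the numbers were not read as pairs, and the block changed no other count of genes or members.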

Other observations

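Some entries of the wider iron list fell outside the rule for naming and were chosen after their values were seen. ABCG2, a transporter that exports porphyrins and other compounds, had 62.4 to 74.8 FPKM in SPM and 42.0 to 62.1 FPKM in CTL. All 6 SPM birds were above all 6 CTL birds (log2 fold change 0.37, limma adjusted p = 0.931). The entry with the symbol FTL, the ferritin light chain, averaged 16.7 ± 0.938 FPKM in SP and 14.6 ± 0.751 FPKM in CTL (SD, n = 6 each). All 6 SP birds were above all 6 CTL birds (log2 fold change 0.19, limma unadjusted p = 0.0599, adjusted p = 0.767). ABCG2 and FTL were picked with this separation seen. It alone sets the exact permutation p at its smallest, 0.00216, so that p is not used as support. Groups stayed apart in this way for 0.22% of all genes in SPM vs CTL and 0.272% in SP vs CTL.

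HMOX2, the constitutive heme oxygenase, averaged 13.7 ± 1.16 FPKM in SPM and 11.6 ± 0.715 FPKM in SPH (log2 fold change 0.25; limma adjusted p = 0.996; exact permutation p = 0.00866), and 13.2 ± 1.49 FPKM in SP and 11.5 ± 0.994 FPKM in CTL (log2 fold change 0.20; adjusted p = 0.767; exact permutation p = 0.0325). Its log2 fold change was 0.26 in SPM vs CTL (limma adjusted p = 0.902, exact permutation p = 0.00649). In SPH vs SP it was -0.19 (limma adjusted p = 0.501, exact permutation p = 0.0260). It was 0.06 in SPM vs SP and 0.01 in SPH vs CTL. Cell type markers that moved in these contrasts are given above, and their part in the HMOX2 values was not tested.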
